A study of Mus musculus with 39 samples.

Results

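The comparison described here is between CD8+ T cells sorted from tumours of mice given anti-PD-1 and CD8+ T cells from tumours of mice given an isotype control antibody. It was made within the arm of the study whose mice carried gut microbiota from human volunteers who had taken CZA (ceftazidime-avibactam, an antibiotic combination) together with DAV132, an adsorbent that acts in the colon. The 10 libraries were chosen by their labels, 5 of isotype (libraries 11 to 15) and 5 of anti-PD-1 (libraries 16 to 20), out of 20 libraries of sorted CD8+ T cells and 39 libraries in the series. All mice were wild-type C57BL/6 and received a faecal microbiota transplant (FMT) of stool from volunteers treated for 6 days. They were injected under the skin 2 weeks later with 800000 cells of MCA-205, a mouse fibrosarcoma line. From a tumour size of 25 to 35 mm2 they had 4 intraperitoneal injections, every 3 days, of anti-PD-1 (clone RMP1-14, 250 µg per mouse) or of isotype antibody (clone 2A3), and were killed 2 days after the last one. The isotype group thus shared the transplant, the tumour and the injections, and the antibody was the only difference that the labels name. No sequencing batch is given, so a batch that went with the antibody cannot be told apart from it. No group of mice without a transplant entered the comparison. The labels do not tie a library to a mouse, so the p-values below measure the spread between these libraries, which may be partly technical. The series' title names mitigation of anti-PD-1 resistance in mice as its subject, and this contrast asks which transcripts of tumour CD8+ T cells differed with the antibody.

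PD-1 is an inhibitory receptor that activated T cells put on their surface, and antibodies against it block the brake that its ligands apply to T cell receptor signalling. In tumours, CD8+ T cells that see antigen for long express several such receptors, lower their cytokine output and keep part of their killing machinery. Those that respond to blockade can secrete interferon-gamma, which induces guanylate-binding proteins, immunity-related GTPases, chemokines such as Cxcl9 and the peptide transporter of antigen presentation in cells that sense it.

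A property of the libraries has to be read before any gene. For 20 gene models of the annotation, satellite-like or simple repeat sequence makes up 46.0% to 100% of the transcript. Satellite-like sequence was counted by short stretches shared with Gm10800, Gm10801 or Gm10718, which stand at 100% by that definition. The 20 models took a larger share of the TPM, the relative abundance per length unit that the files hold, in the anti-PD-1 libraries. Their letters are shown because the same runs recur, below, in ordinary genes that were called higher. The capitals mark the longest perfect run of a unit of 1 to 3 bases, the coordinates are those of mouse build GRCm38, and the sequences are the annotated transcripts, 5′ to 3′.
Gm17604 (chrX:165003765-165004829, minus strand, 75 bases, run of 51): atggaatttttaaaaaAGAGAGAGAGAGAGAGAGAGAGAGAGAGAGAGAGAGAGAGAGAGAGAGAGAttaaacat
Gm10181 (chr9:25089422-25089490, plus strand, 69 bases, run of 58): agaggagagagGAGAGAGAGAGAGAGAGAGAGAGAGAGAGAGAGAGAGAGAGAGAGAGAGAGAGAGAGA
Gm17571 (chr9:13444034-13446753, minus strand, 90 bases, run of 50): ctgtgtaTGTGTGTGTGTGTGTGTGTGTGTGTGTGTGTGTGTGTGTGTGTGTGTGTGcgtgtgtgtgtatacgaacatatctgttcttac
Gm17604 held 15637 to 50356 deposited TPM in the isotype libraries and 180480, 115770, 82304, 28130 and 77153 in libraries 16 to 20. Gm10800 (chr2:98666547-98667301, minus strand), whose transcript is mouse satellite sequence, held 361620 TPM in library 19. Gm17571 held 127280 TPM in library 19. The 20 repeat entries together, 12 satellite and 8 simple repeat, took 2.84%, 5.52%, 2.53%, 8.58% and 2.36% of the TPM in the isotype libraries. They took 29.2%, 18.6%, 15.2%, 70.3% and 12.0% in the anti-PD-1 libraries, so the groups did not overlap. The means were 4.37% ± 2.68 (SD, n = 5) and 29.03% ± 23.9 (SD, n = 5), with p = 0.00794 by a two-sided exact permutation test, which is as low as groups of 5 and 5 allow. Without libraries 16 and 19 the anti-PD-1 mean was 15.2% ± 3.29 (SD, n = 3), with an exact permutation p of 0.0357. That is likewise the lowest that groups of 3 and 5 allow. Repeat-rich libraries were known in this set before the tests, so both p-values describe the separation and are no independent support for it. Every value below is therefore TPM rescaled to 1000000 per library without these 20 entries, unless it is named as deposited.

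Libraries 16 and 19 stood apart from the rest of their group, in different ways. Library 19 alone was rich in satellite entries, at 51.1% of its deposited TPM, and the summed TPM of 1276 olfactory, vomeronasal and taste receptor genes, which T cells are not known to express, was 240.5 there against 12.8 to 16.7 in the isotype libraries. Library 16 had 23.2% of its rescaled TPM on mitochondrially encoded genes, against 4.18% to 5.74% in the isotype group and 11.3%, 7.44%, 4.53% and 7.04% in libraries 17 to 20. The summed TPM of 14 T cell marker genes was 6022 in library 16, against 12706 to 16017 in the isotype libraries and up to 16091 in the other anti-PD-1 libraries. Cd8a stood above Cd4 in every library, as the sort label has it. Cd8a stood at 302, 283, 235, 233 and 348 TPM in libraries 11 to 15 and 127, 298, 332, 318 and 354 TPM in libraries 16 to 20, and Cd4 between 0.475 and 7.89 TPM over all 10. The B cell gene Ms4a1 and the endothelial genes Cdh5 and Tek were below 1 TPM in every library, and the neutrophil gene Ly6g was at 0. Sums over whole marker lists were higher. Over all 10 libraries they were 1141 to 3970 TPM for macrophages and monocytes and 39.5 to 406 TPM for B and plasma cells. The endothelial sum was 227 to 3632 TPM and the erythroid sum 118 to 1237 TPM. Since TPM holds no read numbers, depth is not known here, and no counting interval can be given. For the same reason fewer cells of a type and less RNA per cell cannot be told apart in any result below.

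**Figure D1:**
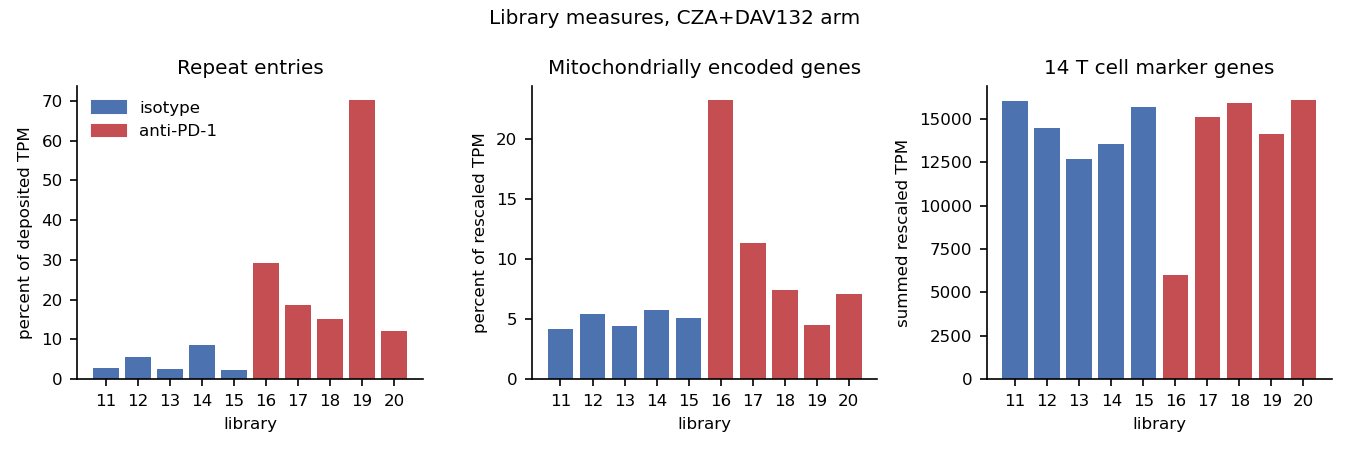
Bars give, for libraries 11 to 20, the percent of deposited TPM on 20 repeat entries, the percent of rescaled TPM on mitochondrially encoded genes, and the summed rescaled TPM of 14 T cell marker genes. All 5 anti-PD-1 libraries exceed all isotype libraries in repeat entries, and library 16 stands apart in the other panels.

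Of 11852 genes tested by limma on log2(TPM + 1), 1030 were called higher with anti-PD-1 (8.69%) and 818 lower (6.9%), at a Benjamini-Hochberg adjusted p under 0.05. The split depended on the scaling. Higher calls made up 55.7% of the calls on rescaled TPM, 30.2% on TPM as deposited (3.87% of genes higher and 8.94% lower), 40.7% with median-ratio scaling (9.69% higher and 14.1% lower) and 66.2% when mitochondrial genes and small RNAs were also left out before rescaling. On the deposited scale the median of all genes moved from 0.05 to -0.36 on the log2 scale, so directions are given on the rescaled scale, relative to a median of 0.05. Without libraries 16 and 19, 1934 genes were higher (16.3%) and 820 lower (6.92%). A set of 900 genes (7.59%) was called higher, and 665 (5.61%) lower, in all of the rescaled fit, the fit without libraries 16 and 19 and the median-ratio fit. Counted without a test, 950 genes (8.02%) lay higher in every anti-PD-1 library than in any isotype library, and 845 (7.13%) lay lower. Values below are listed in the order of libraries 11 to 15 for isotype and 16 to 20 for anti-PD-1, differences are anti-PD-1 minus isotype on the log2(TPM + 1) scale with ± their standard error, which understates the change of low genes, and adjusted p-values are limma's.

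Genes of secreted and surface signals of activated T cells were among the deepest falls. Csf2 (chr11:54247271-54249667), which encodes the cytokine GM-CSF, stood at 84.9, 109, 92.5, 111 and 146 TPM with isotype and 13.4, 11.2, 20.0, 20.9 and 79.5 TPM with anti-PD-1 (log2 difference -2.22 ± 0.43, adjusted p = 0.00724). The groups did not overlap, but library 20, the highest of its group, came close to the lowest isotype library. Xcl1, a chemokine for cross-presenting dendritic cells, stood at 2464, 3778, 3988, 3167 and 3063 TPM and 839.5, 871, 1396, 871 and 2499.7 TPM (log2 difference -1.47 ± 0.29, adjusted p = 0.00806), with library 20 again the highest and just inside the isotype range. Lta, the gene of lymphotoxin alpha, fell less deeply (log2 difference -1.25 ± 0.34, adjusted p = 0.0302). Ccl17 (chr8:94810453-94812036), a chemokine usually made by dendritic cells, stood at 1.47, 20.6, 19.2, 16.2 and 5.01 TPM and 1.60, 0, 0, 0 and 0 TPM (log2 difference -3.08 ± 0.58, adjusted p = 0.00671). It was the deepest fall of all named genes, and it was listed at 0 in 4 of 5 anti-PD-1 libraries, while isotype library 11 lay at the level of library 16. Of the 19 tested effector cytokine and chemokine genes, these first 3 fell, beside 6.9% of all genes, none rose, and the median was -0.14. With libraries 16 and 19 left out, 3 members were called higher (Il2, Ccl3 and Ccl5), 2 lower (Csf2 and Xcl1), and the median was 0.22. The same 3 were higher without library 16 alone, and 5 members were lower without library 20. Ccl3, Ccl4 and Ccl5, genes of inflammatory chemokines, had differences of 0.87, 0.31 and 0.26 that did not pass, with adjusted p of 0.00927, 0.137 and 0.0209 without libraries 16 and 19. Leaving out 1 library at a time ended the call of Lta (library 11, 12, 14, 15, 17, 18 or 19, adjusted p = 0.0506 to 0.0794), and Lta had adjusted p = 0.0806 without libraries 16 and 19.

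Of 21 tested co-stimulation genes, 3 of the TNF and TNF receptor families fell, beside 6.9% of all genes. Cd70 (chr17:57145997-57149777), a ligand of activated T and dendritic cells, stood at 3.80, 15.8, 8.15, 14.8 and 8.23 TPM and 0.405, 0.282, 0.679, 0.301 and 7.12 TPM (log2 difference -2.34 ± 0.52, adjusted p = 0.0138). Library 20 reached 7.12 TPM, inside the isotype range, while the other 4 anti-PD-1 libraries stayed under 1 TPM. Tnfrsf4, the gene of the co-stimulatory receptor OX40, stood at 155, 227, 149, 155 and 195 TPM and 42.7, 58.5, 56.1, 72.5 and 99.9 TPM (log2 difference -1.44 ± 0.22, adjusted p = 0.00433), with no overlap. Tnfrsf18, the gene of GITR, was 301 ± 54.8 in the isotype group and 173 ± 48.2 in the anti-PD-1 group (SD, n = 5 each) (log2 difference -0.83 ± 0.22, adjusted p = 0.0275). No co-stimulation gene rose, and the median was -0.21. Cd27 and Il2rb were called higher when library 16, or libraries 16 and 19, were left out, and the same 3 members stayed lower. Tnfrsf9, the gene of 4-1BB, had a difference of -0.30, adjusted p = 0.296, and Icos of -0.11, adjusted p = 0.886. The call of Tnfrsf18 (library 12, 13, 15 or 18, adjusted p = 0.0564 to 0.0746) was lost when a single library was left out.

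**Figure D2:**
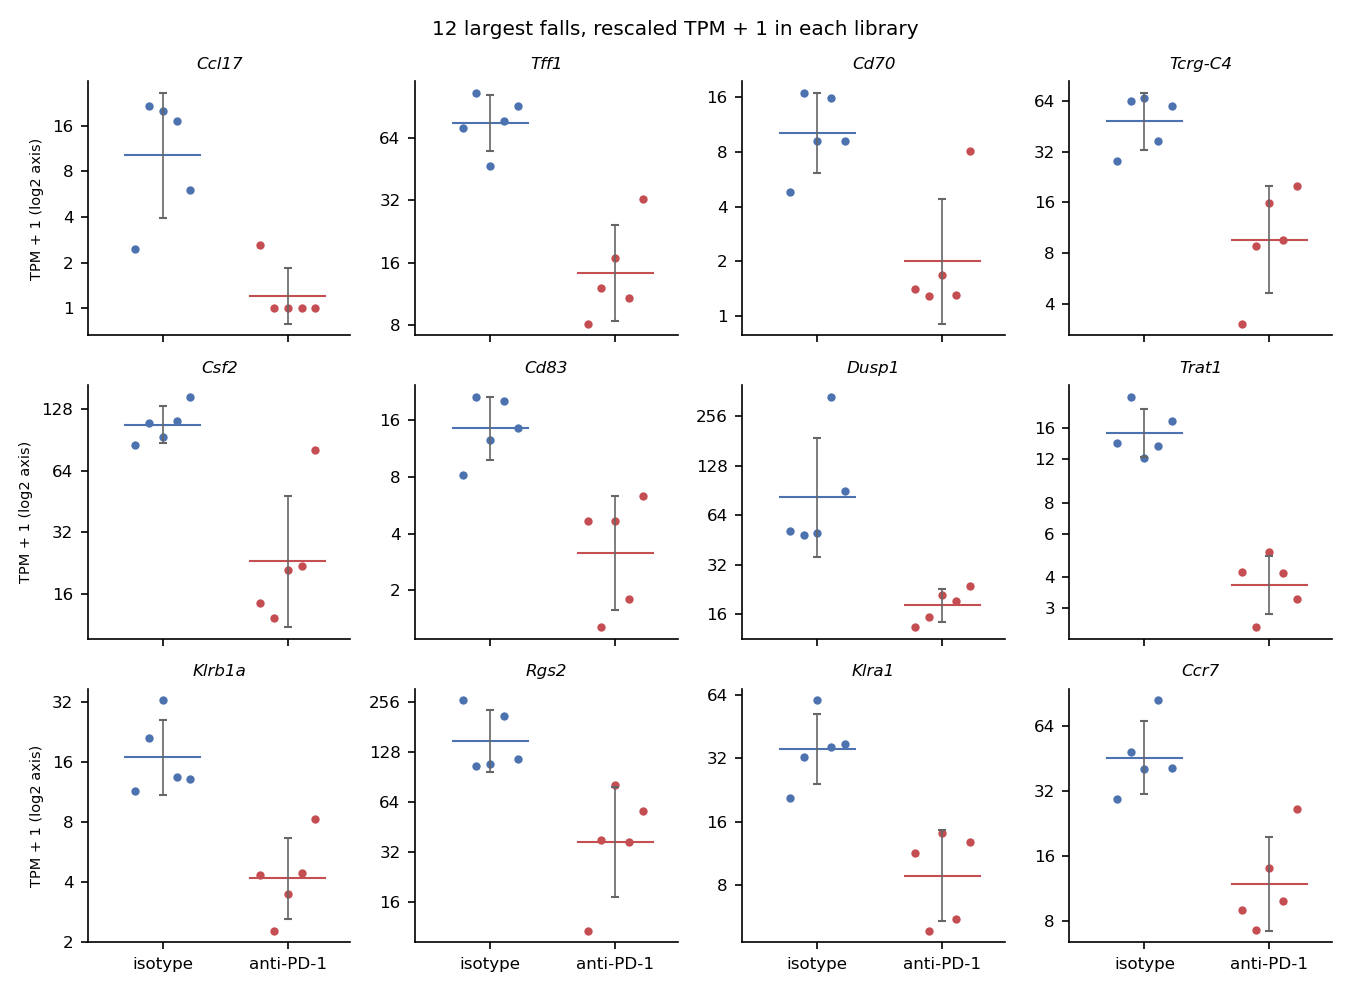
Points give rescaled TPM + 1 in each library on a log2 axis for the 12 largest falls called in all of the rescaled fit, the fit without libraries 16 and 19 and the median-ratio fit. Horizontal bars are means and whiskers 1 SD on the log2 scale, n = 5 each; the groups overlap for Ccl17 and Cd70 and in none of the other panels.

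Of 33 tested immediate early and AP-1 genes 6 fell, and of 17 genes of NF-kB subunits and feedback 3 fell, beside 6.9% of all genes. Library 14 of the isotype group stood high in the first list. Dusp1, the gene of a phosphatase that switches off MAP kinases, stood at 50.2, 47.7, 48.7, 335 and 88.5 TPM and 12.4, 14.5, 20.0, 18.3 and 22.7 TPM (log2 difference -2.17 ± 0.47, adjusted p = 0.0122). Library 14 held 335 TPM, yet every anti-PD-1 library also lay below the lowest isotype library. Rgs2, which encodes a regulator of G protein signalling, stood at 259.8, 103, 107, 209 and 115 TPM and 9.66, 36.4, 79.9, 35.7 and 55.1 TPM (log2 difference -2.01 ± 0.48, adjusted p = 0.0179), again without overlap. Atf3, the gene of a stress-induced transcription factor, stood at 5.81, 3.97, 7.86, 35.5 and 10.1 TPM and 3.96, 1.19, 3.15, 0.329 and 1.70 TPM (log2 difference -1.91 ± 0.52, adjusted p = 0.0296). Its groups nearly touched, at 3.96 TPM in library 16 and 3.97 TPM in library 12. Junb, Fosl2 and Dusp4 were the other 3 of that list that fell (differences -1.20, -0.86 and -1.07). None rose, and the median of the list was -0.62. Without library 14, Junb and Fosl2 lost the call and Fos and Fosb were called lower. The count of 6 was 4 without libraries 16 and 19, 3 without library 19 and 2, Dusp1 and Rgs2, without library 15. None of the NF-kB list rose. It had 1 fall (Cd83) and 1 rise (Bcl3) without libraries 16 and 19, and 1 fall without library 15, 17 or 19. Cd83, an activation marker of lymphocytes and dendritic cells, stood at 7.18, 20.2, 11.6, 19.1 and 13.6 TPM and 3.68, 0.272, 3.67, 0.807 and 5.33 TPM (log2 difference -2.19 ± 0.45, adjusted p = 0.00902), with no overlap. Nfkbia, the gene of the inhibitor IkB-alpha, stood at 203, 204, 189, 914 and 309 TPM and 100.1, 87.9, 128, 75.6 and 142 TPM (log2 difference -1.49 ± 0.39, adjusted p = 0.027, and adjusted p = 0.0714 without libraries 16 and 19). Tnfaip3, the gene of the feedback protein A20, overlapped between groups (log2 difference -1.27 ± 0.39, adjusted p = 0.0465, and adjusted p = 0.0894 without libraries 16 and 19). Leaving out 1 library ended the call of Atf3 (library 13, 15, 17 or 19, adjusted p = 0.0572 to 0.0711), Nfkbia (library 15, 17 or 19, adjusted p = 0.0544 to 0.0665) and Tnfaip3 (library 11, 12, 14, 15, 17, 19 or 20, adjusted p = 0.0569 to 0.095). It also ended those of Junb (library 11, 13, 14, 15, 17 or 19, adjusted p = 0.0502 to 0.0731), Fosl2 (library 11, 14, 15, 18, 19 or 20, adjusted p = 0.0562 to 0.0704) and Dusp4 (library 11, 12, 13, 15, 18 or 20, adjusted p = 0.0541 to 0.0762).

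Trat1, Ccr7 and Tff1 were also among the 12 largest falls. Trat1 (chr16:48730774-48772021), an adaptor that stabilises the T cell receptor complex, stood at 13.0, 20.5, 11.2, 12.6 and 16.1 TPM and 3.19, 1.51, 4.05, 3.16 and 2.25 TPM (log2 difference -2.04 ± 0.23, adjusted p = 0.00433). The highest anti-PD-1 library was at 4.05 TPM against a lowest isotype value of 11.2 TPM. Ccr7 (chr11:99144196-99155077), the receptor that takes naive and central memory cells to lymph nodes, stood at 28.4, 47.4, 39.2, 83.0 and 39.7 TPM and 8.04, 6.25, 13.0, 8.92 and 25.3 TPM (log2 difference -1.93 ± 0.36, adjusted p = 0.0064), and library 20 came close to isotype library 11. Ccr7 and Xcl1 were the 2 of 20 tested stem-like, naive and memory genes that fell, beside 6.9% of all genes, and none rose. When libraries 16 and 19 were left out, Cd27 and Ets1 of that list were called higher, and without library 11 alone 4 members were lower. Tcf7, the gene of the transcription factor of stem-like T cells, had a difference of -0.50, adjusted p = 0.335, and Slamf6 of -0.32, adjusted p = 0.431. Tff1 (chr17:31161395-31165277), a trefoil peptide gene of gut epithelium, stood at 70.8, 104, 45.6, 76.3 and 89.9 TPM and 7.12, 11.0, 15.9, 9.77 and 31.6 TPM (log2 difference -2.41 ± 0.35, adjusted p = 0.00433), with no overlap. Cxcr4, a chemokine receptor, fell (log2 difference -0.94 ± 0.27, adjusted p = 0.0391), with library 14 the highest at 38.7 TPM. The call of Cxcr4 (library 11, 12, 13, 14, 15, 17, 18 or 19, adjusted p = 0.056 to 0.0917) was lost without a single library.

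Of 14 tested genes of natural killer (NK) and innate-like lymphocytes, receptors that activated CD8+ T cells can also carry among them, 6 fell, none rose, and the median was -0.67. These counts stand beside 6.9% of all genes called lower and 8.69% called higher. Without libraries 16 and 19, 3 fell (Klra1, Klra3 and Klra9) and Klrc2 rose. Klra1, an inhibitory Ly49 receptor gene, stood at 19.6, 31.5, 59.2, 35.1 and 36.4 TPM and 10.3, 3.86, 13.1, 4.53 and 11.8 TPM (log2 difference -1.99 ± 0.36, adjusted p = 0.00597). Klra3 stood at 29.8, 25.7, 51.6, 29.3 and 26.996 TPM and 5.61, 8.58, 9.06, 15.4 and 20.3 TPM (log2 difference -1.47 ± 0.31, adjusted p = 0.0104). Neither gene's groups overlapped. Klra7, Klra9, Klrb1c and Tyrobp, the adaptor gene of activating receptors, fell as well, with differences of -1.48, -1.72, -1.21 and -1.14. Single libraries ended the calls of Klra7 (library 12, 13, 15 or 17, adjusted p = 0.0502 to 0.0568), Klrb1c (library 17, adjusted p = 0.0561) and Tyrobp (library 12, 13, 14, 15, 19 or 20, adjusted p = 0.0575 to 0.0718). Klrb1a, a lectin-like receptor gene outside that list, stood at 10.4, 20.1, 31.8, 12.4 and 12.2 TPM and 3.31, 1.27, 2.48, 3.44 and 7.29 TPM (log2 difference -2.03 ± 0.37, adjusted p = 0.00609). Ly49 genes are close copies of each other, so how the authors' estimates split reads among them is uncertain. Constant segments of the gamma chain, which mark gamma-delta T cells but are also transcribed in some alpha-beta T cells, fell in part. Tcrg-C4 stood at 27.1, 63.3, 66.2, 36.3 and 58.7 TPM and 2.05, 7.86, 14.8, 8.59 and 19.2 TPM (log2 difference -2.34 ± 0.46, adjusted p = 0.00774), and Tcrg-C1 fell too (log2 difference -1.59 ± 0.28, adjusted p = 0.00559). Tcrg-C2 did not pass (-0.95, adjusted p = 0.18), and these gamma segments are near-identical copies as well. Of the 9 gamma-delta list genes only 3 passed the level filter, and Sox13 and Blk were under 1 TPM in every library. The summed TPM of the NK list was 2939 to 4916 with isotype and 1558 to 3098 with anti-PD-1. The part of other cell types in these falls was not tested.

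The shares of all genes called were 6.9% lower and 8.69% higher. Of 69 tested nuclear genes of oxidative phosphorylation, 36 fell with anti-PD-1, 1 rose, and the median was -0.57. None of the 13 mitochondrially encoded subunits of the same complexes fell. Ndufa4, a subunit gene of the respiratory chain, stood at 1308, 1444, 1498, 1131 and 1633 TPM and 472, 752, 607, 614 and 761 TPM (log2 difference -1.14 ± 0.16, adjusted p = 0.00433). Cox7a2, a cytochrome c oxidase subunit gene, stood at 921, 881, 893, 787 and 898 TPM and 329, 517, 487, 476 and 601 TPM (log2 difference -0.89 ± 0.16, adjusted p = 0.00565). Ndufs6 of complex I was 519 ± 41.3 in the isotype group and 317 ± 27.3 in the anti-PD-1 group (SD, n = 5 each) (log2 difference -0.71 ± 0.11, adjusted p = 0.00476). In all 3 every anti-PD-1 library lay below every isotype library. Ndufs1, the largest subunit of complex I, was the member that rose (log2 difference 0.89 ± 0.26, adjusted p = 0.0426). The call was lost on the deposited scale, and leaving out a single library ended that of Ndufs1 (library 11, 12, 13, 14, 15 or 18, adjusted p = 0.0571 to 0.103). Ndufs1 has a longest annotated transcript of 2661 bases, while 49 of the 69 genes fall in the shortest quartile of transcript length (up to 1791 bases). Over all tested genes of that quartile without a repeat run or imperfect repeat window, the median was -0.32, with 59 higher and 427 lower of 2676. Their longest quartile (over 4492 bases) had a median of 0.18, with 81 higher and 23 lower of 1238. By mean TPM, the highest quartile of genes without repeats (over 29.4 TPM) had a median of -0.35, with 55 higher and 492 lower of 2065. The lowest quartile (up to 3.75 TPM) had a median of 0.09, with 61 higher and 26 lower of 2084. The parts of transcript length and of expression level in the fall of the respiratory genes were not tested. The count of falls was 36 without libraries 16 and 19, 29 on the deposited scale and 56 with median-ratio scaling.

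The 13 mitochondrially encoded respiration genes had a median of 0.98, and 2 of them rose, beside 8.69% of all genes. mt-Nd4l stood at 96.6, 136, 111, 121 and 90.6 TPM and 613, 310.4, 198, 147 and 194 TPM (log2 difference 1.21 ± 0.33, adjusted p = 0.0304), with library 16 highest. mt-Nd6 rose as well (log2 difference 1.06 ± 0.33, adjusted p = 0.0493), and library 19 lay inside the isotype range. Without libraries 16 and 19 all 13 were called higher, with a median of 0.82, while on the deposited scale and with median-ratio scaling none was. Leaving out 1 library ended the call of mt-Nd4l (library 11, 13, 15 or 17, adjusted p = 0.0645 to 0.0794) and mt-Nd6 (library 11, 12, 13, 14, 15, 17 or 18, adjusted p = 0.0712 to 0.121). The direction of the mitochondrially encoded genes was the same under each scaling, with medians of 0.43 as deposited and 0.90 with median-ratio scaling.

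Among other housekeeping groups, the proteasome had a larger share of falls than ribosomal proteins and chaperones. The share of falls over all genes was 6.9%, and over the quartile of genes with the highest mean TPM it was 20.1%. Of 31 genes of the constitutive proteasome, which degrades ubiquitin-tagged proteins, 16 fell, none rose, and the median was -0.58. Psmb2 stood at 546, 511, 542, 468 and 619.7 TPM and 199.8, 296, 314, 293 and 328 TPM (log2 difference -0.92 ± 0.15, adjusted p = 0.00484), and Psmb1 was 441 ± 57.5 in the isotype group and 248 ± 29.5 in the anti-PD-1 group (SD, n = 5 each) (log2 difference -0.83 ± 0.14, adjusted p = 0.00484). Neither overlapped between groups. The list has 15 of its 31 members in the shortest length quartile. Of 73 ribosomal protein genes, 55 of them in that quartile, 12 fell and none rose, with a median of -0.20 that was -0.07 without libraries 16 and 19, when 11 fell and 3 rose. The 12 falls were 7 without library 12, 6 without library 13 and 19 without library 20. Rps27a stood at 1364, 1422, 1693, 1175 and 1425 TPM and 845, 713, 763, 543 and 774 TPM (log2 difference -0.97 ± 0.15, adjusted p = 0.00433), with no overlap. Of 24 heat shock chaperone genes, 2 of them in that quartile, 4 fell and none rose, among them Dnaja1 (log2 difference -0.89 ± 0.19, adjusted p = 0.0122), Cct5 (log2 difference -0.73 ± 0.13, adjusted p = 0.00619) and Hspe1 (log2 difference -0.53 ± 0.16, adjusted p = 0.048). Of these, Hspe1 (library 12, 13, 14, 15, 17, 18, 19 or 20, adjusted p = 0.0738 to 0.122) lost the call when a single library was left out. The chaperone count was 7 without library 16 and 2 without library 12, 13, 14, 15, 17, 18 or 19. Psmd1 and Hsp90b1 of these lists were called higher without libraries 16 and 19.

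**Figure D3:**
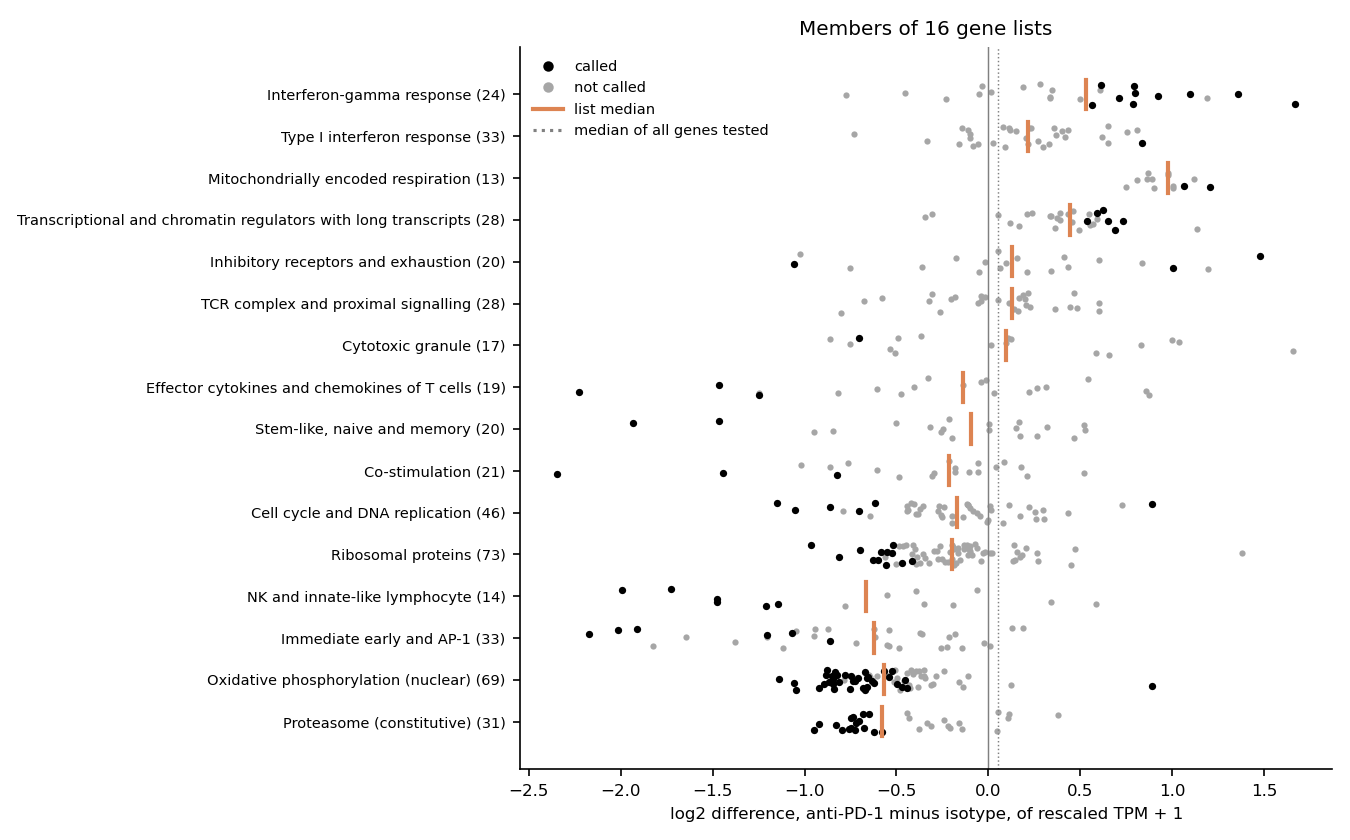
Each point is the log2 difference (anti-PD-1 minus isotype, on TPM + 1) of a tested member of 16 gene lists, with the number tested in brackets, black where called and grey where not. Orange bars are list medians and the dotted line is the median of all genes tested, 0.05; proteasome and nuclear respiratory genes lie mostly to the left, and mitochondrially encoded genes all lie to the right.

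Genes of division and metabolism showed a mixed pattern. The counts below stand beside 6.9% of all genes called lower and 8.69% called higher. Of 46 cell cycle and replication genes, 5 fell (Cdk1, Birc5, Tyms, Gins2 and Rfc4) and 1 rose (Ccne1, the gene of cyclin E1, log2 difference 0.89 ± 0.22, adjusted p = 0.0193). Ccne1 holds an imperfect repeat window, a class with more rises than falls (below). With all genes holding one left out, 35 of the list were tested, Tyms and Rfc4 fell and Hells rose. Tyms, the gene of thymidylate synthase, stood at 138, 191, 179.9, 129.8 and 184 TPM and 44.8, 72.1, 74.2, 73.4 and 114 TPM (log2 difference -1.15 ± 0.22, adjusted p = 0.00732). Mki67, a marker of cycling cells, stood at 10.7, 16.8, 14.2, 13.5 and 13.3 TPM and 16.4, 14.0, 17.4, 14.6 and 20.6 TPM and did not pass (0.26, adjusted p = 0.291). Of 28 glycolysis and hypoxia genes, 3 fell and none rose, with a median of 0.01. Hilpda, a hypoxia-induced lipid droplet gene, stood at 243, 108, 154, 112 and 207 TPM and 36.4, 65.6, 66.2, 67.5 and 47.8 TPM (log2 difference -1.49 ± 0.26, adjusted p = 0.00558), with no overlap. Ldha, the gene of lactate dehydrogenase A, had log2 difference -0.66 ± 0.18, adjusted p = 0.0275, and Tpi1, the gene of triosephosphate isomerase, log2 difference -0.69 ± 0.20, adjusted p = 0.0355. Of 23 cholesterol genes Fdps (log2 difference -1.16 ± 0.31, adjusted p = 0.0272) and Pmvk (log2 difference -0.71 ± 0.22, adjusted p = 0.0498) fell. Idi1 of the same pathway, whose transcript holds a pyrimidine run of 41 bases, rose (log2 difference 1.37 ± 0.25, adjusted p = 0.00619). Single libraries ended the calls of Ccne1 (library 15, adjusted p = 0.0543) and Ldha (library 12, 13, 15 or 17, adjusted p = 0.0569 to 0.0641), of Tpi1 (library 12, 13, 15, 17, 18 or 20, adjusted p = 0.0512 to 0.0847) and Fdps (library 11, 13, 15, 17 or 18, adjusted p = 0.0591 to 0.0742) and of Pmvk (library 11, 13, 14, 15, 16, 17 or 19, adjusted p = 0.0611 to 0.123). They also ended those of Cdk1 (library 12, 13, 15, 17 or 19, adjusted p = 0.0577 to 0.0778) and Gins2 (library 11, 12, 13, 15, 17, 18 or 20, adjusted p = 0.0548 to 0.0873), so that 3 cell cycle falls were left without library 12, 13, 15 or 17. The count of glycolysis falls was 1 without library 12, 13, 15 or 17.

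Of 24 tested genes induced by interferon-gamma, 10 rose, none fell, and the median was 0.53, against 8.69% of all genes called higher. The 10 hold no repeat run of 31 bases, but Gbp4 and Gbp7 hold an imperfect repeat window, a class with more rises than falls (below). With all genes holding such a window left out, 9 of 19 members rose. Cxcl9 (chr5:92321347-92328079), a chemokine that attracts activated T cells through Cxcr3, stood at 2.17, 3.16, 3.81, 3.97 and 3.78 TPM and 22.6, 13.6, 10.2, 22.3 and 4.46 TPM (log2 difference 1.67 ± 0.36, adjusted p = 0.0122). Every anti-PD-1 library was above every isotype library, although library 20 was barely so. Gbp3 (chr3:142560026-142573209), a guanylate-binding protein gene, stood at 11.4, 7.45, 9.67, 10.7 and 9.77 TPM and 22.6, 28.6, 20.6, 20.6 and 18.3 TPM (log2 difference 1.09 ± 0.16, adjusted p = 0.00433), again without overlap. Igtp (chr11:58199556-58207591), an immunity-related GTPase gene, stood at 46.6, 39.5, 47.5, 50.8 and 60.1 TPM and 56.5, 111, 94.9, 90.8 and 126 TPM (log2 difference 0.92 ± 0.21, adjusted p = 0.0142), and only library 16 fell inside the isotype range. Gbp7 (chr3:142530342-142550149) and Gbp4 showed the same arrangement, with library 16 lowest at 19.2 and 19.8 TPM and the other 4 anti-PD-1 libraries between 29.4 and 36.2 TPM (log2 difference 0.79 ± 0.18, adjusted p = 0.013 and log2 difference 0.71 ± 0.18, adjusted p = 0.0226). Irgm2 (0.79), Irgm1 (0.61) and Iigp1 (1.35) completed the GTPases. Tap1 and Tap2, which carry peptides to class I molecules, rose by 0.56 and 0.80 on the log2 scale. Ifng itself stood at 306, 228, 262, 326 and 363 TPM and 124, 437, 380.2, 402 and 287 TPM and did not pass (0.03, adjusted p = 0.965), with library 16 lowest.

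The interferon-gamma calls depended on the scaling more than on the libraries that stood apart. Leaving out libraries 16 and 19 gave 12 rises and 1 fall, and with median-ratio scaling 11 rose and 1 fell. On the deposited scale, where the repeat entries keep their share, 1 rose, 1 fell and the median was 0.01, beside a median of all genes of -0.36. Beside 8.69% of all genes, 1 of 33 type I interferon genes rose. This was Stat2, a subunit of the interferon-induced factor ISGF3 (log2 difference 0.83 ± 0.20, adjusted p = 0.0194). The list median of 0.21 was -0.25 on the deposited scale. Stat2 holds an imperfect repeat window. With all genes holding one left out, 23 of the list were tested and Ddx58 was the 1 called higher. Stat2 and 4 others rose without libraries 16 and 19, and 6 members without library 16. Single libraries ended the calls of Gbp4 (library 12, 13, 17 or 18, adjusted p = 0.0525 to 0.0585) and Irgm1 (library 11, 12, 13, 15, 17, 18, 19 or 20, adjusted p = 0.0504 to 0.0788), and of Tap1 (library 11, 12, 13, 14, 17 or 18, adjusted p = 0.0515 to 0.0694) and Stat2 (library 13, adjusted p = 0.0539).

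The upstream sequences of 5 of the called genes are shown because they carry the interferon-stimulated response element core, which is GAAA, any 2 bases, then GAAA. They are the 120 bases before the RefSeq start in build GRCm38.p6, 5′ to 3′ on the gene's strand, with matches on either strand in capitals.
Gbp3 (chr3:142559924-142560043, plus strand): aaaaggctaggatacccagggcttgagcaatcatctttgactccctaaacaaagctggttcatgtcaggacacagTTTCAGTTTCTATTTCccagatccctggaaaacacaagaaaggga
Gbp7 (chr3:142530216-142530335, plus strand): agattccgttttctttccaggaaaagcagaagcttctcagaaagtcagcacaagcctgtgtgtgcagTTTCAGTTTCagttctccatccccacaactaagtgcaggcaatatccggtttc
Igtp (chr11:58199436-58199555, plus strand): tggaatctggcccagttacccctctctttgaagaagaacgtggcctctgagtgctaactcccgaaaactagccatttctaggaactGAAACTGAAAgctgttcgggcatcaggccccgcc
Irgm2 (chr11:58214857-58214976, plus strand): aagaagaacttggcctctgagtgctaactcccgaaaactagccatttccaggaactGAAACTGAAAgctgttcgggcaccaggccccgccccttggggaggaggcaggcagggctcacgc
Irgm1 (chr11:48871421-48871540, minus strand): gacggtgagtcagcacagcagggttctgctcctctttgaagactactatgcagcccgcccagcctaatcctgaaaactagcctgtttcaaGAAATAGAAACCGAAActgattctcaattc
Over 250 bases before the start and both strands, 5 of the 7 called interferon-gamma genes with a promoter in the RefSeq table held the motif, and so did 5 of the 12 that were tested and not called. It was in 936 of 27025 genes of the table (3.46%) and in 3.73% of the promoters of all genes called higher. The gamma-activated sequence, which is TTC, any 3 bases, then GAA, was in 3 of the same 7 and 6 of the same 12, and in 8.13% of the table. Igtp and Irgm2 lie close together on chromosome 11 with near-identical upstream sequence. A match describes letters in a window and is no measurement of binding.

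**Figure D4:**
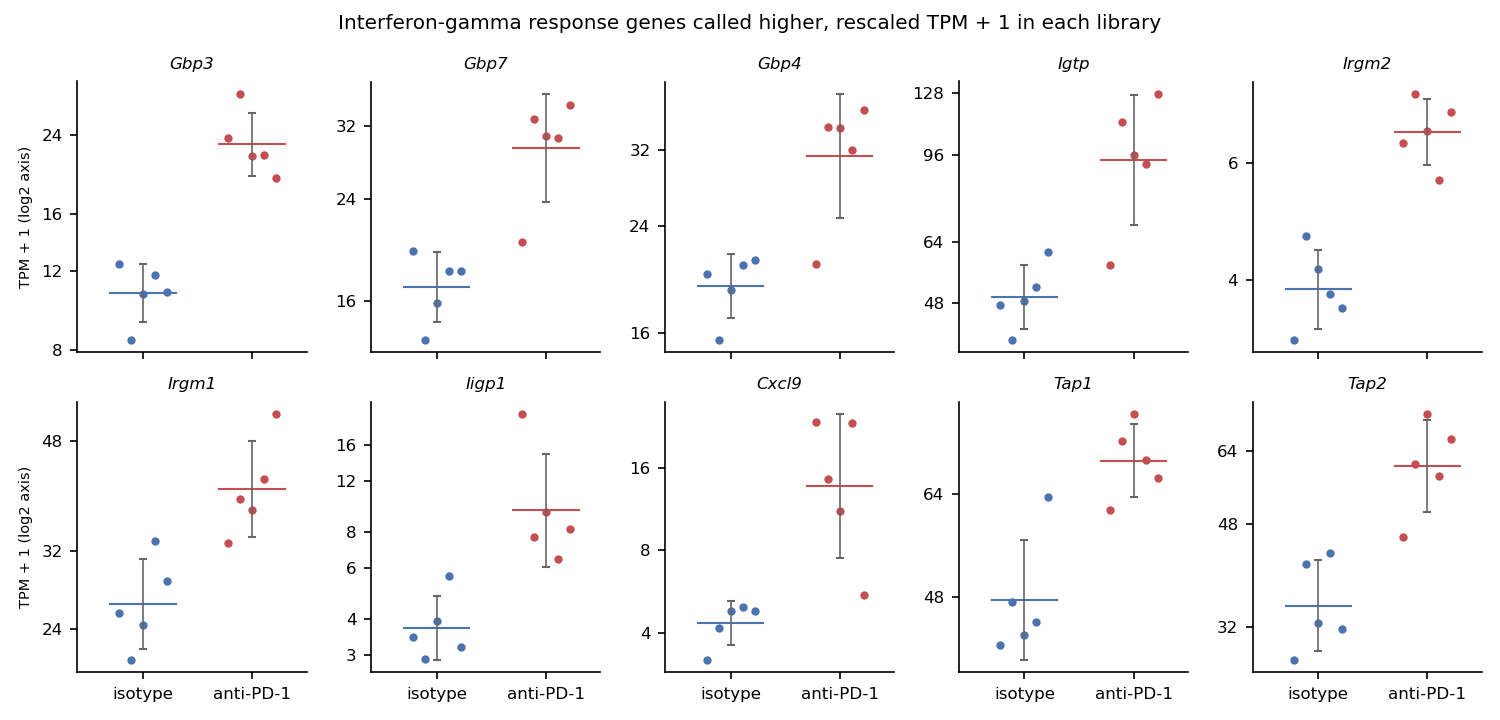
Points give rescaled TPM + 1 in each library on a log2 axis for the 10 interferon-gamma response genes called higher, with means (horizontal bars) and 1 SD on the log2 scale (whiskers), n = 5 each. Library 16 is the first red point from the left and lies within or near the isotype range for Gbp4, Gbp7 and Igtp, and is the highest for Iigp1.

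Some regulators and surface genes of T cells without a 31-base run also rose. Prdm1, the gene of Blimp-1, a factor of effector and exhausted cells, stood at 5.58, 2.18, 1.74, 2.02 and 2.43 TPM and 8.84, 14.1, 12.1, 10.0 and 3.56 TPM (log2 difference 1.47 ± 0.34, adjusted p = 0.0156), where isotype library 11 and anti-PD-1 library 20 overlapped. Itga4, an integrin chain gene, stood at 1.46, 2.64, 5.35, 7.02 and 3.70 TPM and 7.67, 18.6, 11.9, 16.6 and 4.68 TPM (log2 difference 1.33 ± 0.39, adjusted p = 0.0413, and adjusted p = 0.0712 without libraries 16 and 19). Thy1, a glycoprotein gene of T cells that is also in the fibroblast list, stood at 318, 272, 262, 258 and 206 TPM and 345, 448, 491, 368 and 512 TPM (log2 difference 0.71 ± 0.16, adjusted p = 0.0132), with no overlap. The lists that follow stand beside 8.69% of all genes called higher, and 15.4% of genes in the longest quartile of transcripts (over 4492 bases). Of 28 transcriptional and chromatin regulators chosen for long transcripts, 6 rose and none fell, with a median of 0.44, which was -0.01 with no calls on the deposited scale. The 6 were 17 without libraries 16 and 19, 15 without library 16, and 1 to 3 without library 11, 12, 13, 15, 17, 18 or 20. With all genes holding an imperfect repeat window left out, 3 of the 28 regulators remained, with no call and a median of 0.22. Birc6, Chd4 and Zfp638 each hold such a window. Birc6, a large ubiquitin ligase gene, stood at 53.0, 57.3, 49.7, 67.4 and 55.3 TPM and 82.5, 80.7, 102, 93.2 and 87.4 TPM (log2 difference 0.65 ± 0.13, adjusted p = 0.00771), with no overlap. Chd4, a chromatin remodeller gene, rose by 0.62 and Zfp638 by 0.59 on the log2 scale. Of 16 splicing and nuclear RNA genes 4 rose, among them Pnisr (log2 difference 0.84 ± 0.20, adjusted p = 0.0192) and Luc7l2 (log2 difference 0.86 ± 0.22, adjusted p = 0.0242). Unlike Pnisr, Luc7l2 does hold a run of at least 31 bases. The 4 were 6 without libraries 16 and 19, and 1 or 2 without library 11, 12, 13, 15, 17 or 18. Of all the calls in this paragraph, those of Itga4 (library 11, 12, 13, 15, 17, 18 or 19, adjusted p = 0.0591 to 0.0957) and Chd4 (library 11, 13, 15, 17, 18 or 20, adjusted p = 0.0552 to 0.0831) were lost without a single library. So were those of Zfp638 (library 11, 12, 13, 14, 15, 17, 18 or 20, adjusted p = 0.0517 to 0.0892) and Luc7l2 (library 13, 15, 17 or 18, adjusted p = 0.0503 to 0.0621).

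Across all genes, the rises went with repeats in the annotated transcripts, with a dependence on the letters of the repeat. Of 1553 tested genes with a perfect run of at least 31 bases, 463 were higher and 40 lower, with a median of 0.43. An imperfect repeat window is 31 bases of which at least 26 fit a repeated unit of 1 to 3 bases, so somewhat shorter perfect runs also count. Of 7829 genes with neither such a run nor an imperfect repeat window, 260 were higher and 679 lower, with a median of -0.06. The 2382 genes with only an imperfect window lay between, at 301 higher, 93 lower and a median of 0.21. Runs of AG gave 111 higher and 2 lower of 161 genes (median 1.64), and runs of CT 146 higher and 3 lower of 232 (median 1.10). Runs of A and of T were similar, with 27 of 41 and 28 of 38 genes higher. Runs of AC, with 52 of 391 higher (median 0.28), and of GT, with 60 of 507 higher (median 0.31), lay much closer to all genes. The medians of AG genes per library were -0.18, 0.15, -0.21, 0.46 and -0.25 with isotype and 1.89, 1.31, 1.36, 1.98 and 0.87 with anti-PD-1, so libraries 16 and 19 were highest and no library overlapped. Runs of 31 bases or more were in 13.1% of all tested genes, 45.0% of those called higher and 4.89% of those called lower. Among the 100 largest rises 84 genes held a run, and among the 100 largest falls 3 did. The rescaling removed the 20 repeat entries alone, so any such signal within ordinary genes stays in their TPM. The part of genomic or unspliced repeat sequence in these values was not tested. With the genes holding a run left out, 936 of 10299 were higher (9.09%) and 520 lower (5.05%), and with those holding an imperfect window also left out, 451 of 7917 were higher (5.7%) and 310 lower (3.92%), 9.61% in all.

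**Figure D5:**
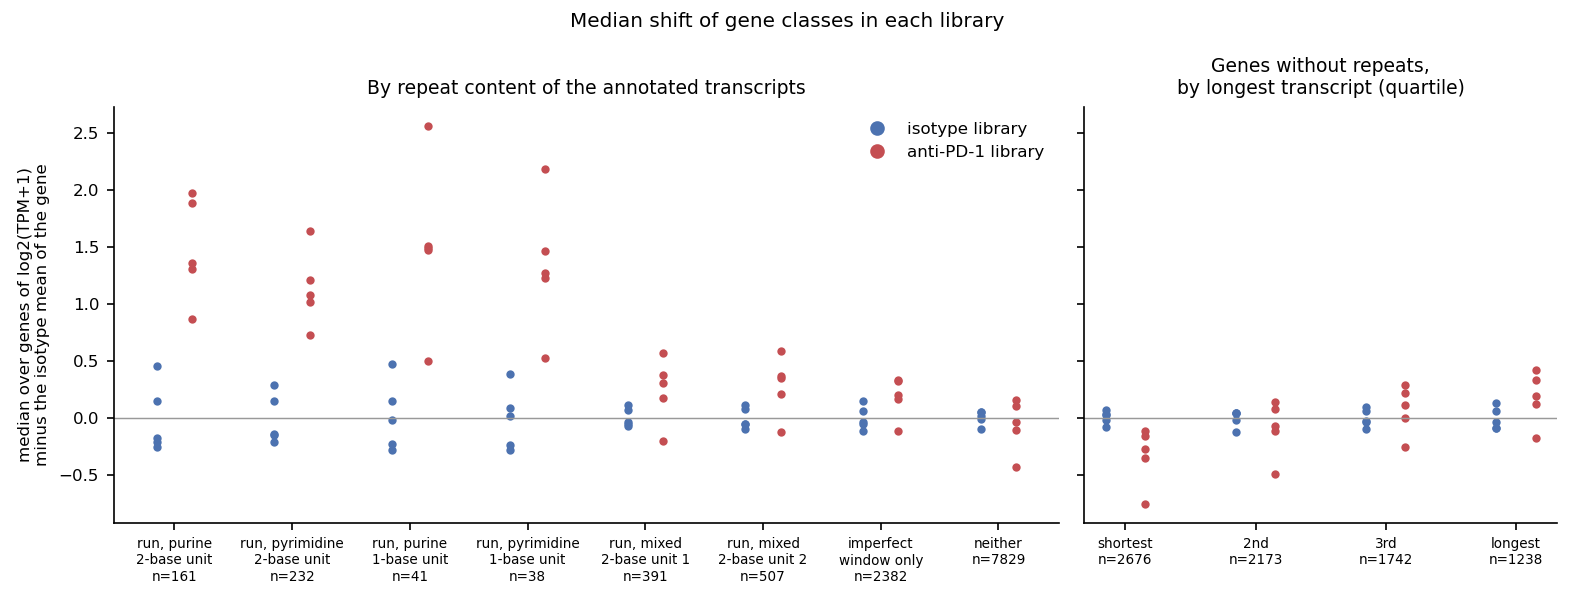
Each point is a library's median, over the genes of a class, of log2(TPM + 1) minus the gene's isotype mean, for classes of repeat content (left) and for genes without repeats by quartile of transcript length (right), with n genes per class. All anti-PD-1 libraries exceed all isotype libraries for the purine-only and pyrimidine-only runs. On the right, medians rise with transcript length in every anti-PD-1 library, while those of isotype libraries 13 and 15 fall.

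The 12 largest rises all held a run of 44 to 97 bases, and several are genes of other tissues. C1qtnf1, a secreted C1q-family gene whose transcript has a CT run of 73 bases, stood at 2.81, 10.3, 2.57, 12.4 and 0.653 TPM and 105, 88.9, 72.6, 246 and 35.2 TPM (log2 difference 4.16 ± 0.61, adjusted p = 0.00433). Myo7a, a myosin gene of the inner ear and retina with an AG run of 50 bases, stood at 104, 207, 75.9, 407 and 56.3 TPM and 2507, 1544, 1191, 4249.8 and 696 TPM (log2 difference 3.68 ± 0.58, adjusted p = 0.00447). Library 19 was highest for both and library 20 lowest of its group. The other 10, among them Lacc1, Mid2, Sh3bgr, Nol3, Serpina9, Itih4, Mkx, Six2 and Fam81a, had differences between 3.04 and 3.56. In all 12 every anti-PD-1 library exceeded every isotype library. Among rises without such a run, the 12 largest were Pou1f1, Adgrl3, Hnf4g, Gpc6, Prr15, Cd300lg, Tenm1, Smpd4, Lmbrd1, Hltf, Gpr165 and Mcc, between 2.31 and 2.88. Several of these are genes of pituitary, nerve or gut, and 5 (Adgrl3, Prr15, Lmbrd1, Hltf and Mcc) hold a shorter run of 27 to 30 bases. Pou1f1, the pituitary transcription factor gene, stood at 8.50, 34.4, 14.6, 20.1 and 6.75 TPM and 93.4, 36.5, 153, 788 and 42.4 TPM (log2 difference 2.88 ± 0.75, adjusted p = 0.0255), highest in library 19. Hltf, a DNA helicase-like gene, stood at 63.4, 73.0, 77.9, 94.5 and 55.4 TPM and 985.7, 392, 365, 298 and 172 TPM (log2 difference 2.36 ± 0.37, adjusted p = 0.00445), highest in library 16. Single libraries ended the calls of Fam81a (library 11 or 15, adjusted p = 0.0517 to 0.0585) and Pou1f1 (library 11, 13, 15 or 18, adjusted p = 0.0541 to 0.0702) and of Adgrl3 (library 15, adjusted p = 0.063) and Cd300lg (library 11, 12, 13, 14, 15 or 18, adjusted p = 0.0723 to 0.108).

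Over all genes, 8.69% were called higher and 6.9% lower. Of 20 tested genes of inhibitory receptors and exhaustion, 2 rose (Tox and Prdm1), 1 fell (Ctla4) and the median was 0.13. Library 16 moved these counts. Without it, or without libraries 16 and 19, Havcr2, Entpd1, Cd38, Tox, Id2 and Prdm1 were called higher, and without both Cd160 was the 1 call lower. Pdcd1, the gene of PD-1 itself, stood at 173, 129, 104, 78.0 and 125 TPM and 40.9, 158, 147, 152 and 129.7 TPM (-0.05, adjusted p = 0.943), with library 16 lowest. Ctla4 fell (log2 difference -1.06 ± 0.32, adjusted p = 0.0451), from 133, 66.3, 58.8, 75.9 and 98.7 TPM to 17.9, 46.7, 62.8, 44.9 and 39.5 TPM with overlap, and had adjusted p = 0.0666 without libraries 16 and 19. Tox, a factor of exhausted cells, rose (log2 difference 1.00 ± 0.24, adjusted p = 0.0172), but its transcript holds an AC run of 37 bases. Havcr2, the gene of TIM-3, stood at 23.9, 14.1, 13.5, 9.85 and 15.7 TPM and 11.6, 46.7, 42.8, 63.5 and 35.2 TPM (1.19, adjusted p = 0.0596), with adjusted p = 0.00775 without libraries 16 and 19 and an AC run of 56 bases. Lag3 (CT run of 47), Tigit (CT run of 31), Cd274 (AC run of 44) and Il2 (AGC run of 38) had differences of 0.41, 0.21, 1.19 and 0.86 that did not pass. Gzmb, the gene of granzyme B, stood at 1885, 723, 1772, 952 and 1299.7 TPM and 616, 1617, 1564, 1861 and 1420.0 TPM (0.09, adjusted p = 0.883). Prf1, the gene of perforin, had a difference of 0.66, adjusted p = 0.325, and adjusted p = 0.038 without libraries 16 and 19. Tnf had a difference of -0.14, adjusted p = 0.844. Of 17 cytotoxic granule genes Srgn, the gene of the granule proteoglycan serglycin, fell (log2 difference -0.70 ± 0.21, adjusted p = 0.0413), and none rose. Without library 16, or libraries 16 and 19, Gzmd, Gzmg and Prf1 were called higher and Srgn and Cst7 lower. None of 28 genes of the T cell receptor complex and its signalling and none of 14 T cell markers was called by limma. At an unadjusted p under 0.05 there were 5 of the 28 and 0 of the 14, beside 3716 of all 11852 genes. When libraries 16 and 19 were left out and 23.2% of all genes were called, 9 of the 28 rose, among them Lck, Zap70, Cd247 and Nfatc1, and 3 of the 14 markers. Without library 16 alone these counts were 12 and 3. Single libraries ended the calls of Ctla4 (library 11, 12, 13, 14, 15, 17, 19 or 20, adjusted p = 0.0547 to 0.108) and Tox (library 15, adjusted p = 0.0502) and of Srgn (library 11, 12, 13, 14, 15, 17 or 18, adjusted p = 0.0507 to 0.102).

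Markers of other cells were present at low level and moved in part. Their counts stand beside 6.9% of all genes called lower and 8.69% called higher. The summed TPM of 22 macrophage and monocyte genes was 2314 to 3970 with isotype and 1141 to 1978 with anti-PD-1, without overlap. Ly6c2, which memory and effector CD8+ T cells also express, made up much of that sum at 2015, 1516, 2222, 1913 and 2677 TPM and 367, 1149, 1218, 1004 and 1354 TPM, and was the 1 member of 20 tested that fell (log2 difference -1.13 ± 0.32, adjusted p = 0.0363). The list median was -0.80. Isotype library 11 moved this count. Without it 9 members fell, among them Lyz2, C1qa, C1qb, C1qc and Cd68, Ly6c2 lost the call, and the median was -1.11. On the deposited scale 6 fell. Of 10 class II presentation genes, H2-DMa (log2 difference -1.09 ± 0.26, adjusted p = 0.0166) and H2-Oa (log2 difference -1.37 ± 0.32, adjusted p = 0.0168) fell. Cd74, the invariant chain gene, stood at 91.1, 327, 364, 349 and 396 TPM and 165, 112, 112, 113 and 139 TPM and did not pass (-1.10, adjusted p = 0.058). Without library 11, which was low in Cd74, 8 of the 10 fell (H2-Aa, H2-Ab1, H2-Eb1, H2-DMa, H2-DMb1, H2-Oa, Cd74 and Ctss), and the median moved from -0.62 to -1.12. Ccl17, Ccr7 and Cd83 are also the 3 of 12 mature dendritic cell genes that fell, with a list median of -0.19 and a summed TPM of 1658 to 2613 with isotype and 807.8 to 3770.1 with anti-PD-1. Batf3, a factor of cross-presenting dendritic cells and of activated T cells, fell (log2 difference -1.55 ± 0.47, adjusted p = 0.0454). Of 15 fibroblast genes Col1a2 (AAG run of 73 bases), Timp3 (AG run of 50) and Thy1 rose. In the B cell list Ebf1 (GT run of 35) and Pax5 rose, while Ms4a1 and Mzb1 stayed under 1 TPM. Pecam1 (A run of 43) rose from 257, 311, 307, 425 and 225 TPM to 3626, 1603, 1353, 1455 and 575 TPM (log2 difference 2.29 ± 0.39, adjusted p = 0.00513) while the endothelial genes Cdh5, Tek, Emcn and Esam stayed under 1 TPM. The part of other cells in the falls and rises was not tested. Single libraries ended the calls of Ly6c2 (library 11, 13, 14, 15, 17 or 19, adjusted p = 0.0533 to 0.0954) and Pax5 (library 11, 13, 14, 15, 16 or 18, adjusted p = 0.0507 to 0.103) and of Batf3 (library 11, 13, 14, 15, 17, 18, 19 or 20, adjusted p = 0.0553 to 0.101) and Timp3 (library 12, 13 or 15, adjusted p = 0.0505 to 0.054).

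In the arm without DAV132, the same antibody contrast in CD8+ T cells called few genes. Of 12972 genes in a fit over all 20 CD8 libraries, 2 were called higher (0.0154%) and none lower, with 1218 at an unadjusted p under 0.05. The test of the difference between the arms called 1 gene (0.00771%), Coa7 (chr4:108328140-108341544), which encodes a cytochrome c oxidase assembly factor. In the CZA+DAV132 arm it stood at 30.6, 22.4, 34.7, 28.3 and 20.6 TPM and 5.50, 11.2, 9.20, 4.86 and 8.91 TPM (log2 difference -1.69 ± 0.23, adjusted p = 0.00433), with no overlap. Its difference in the CZA arm was 0.09, and the difference between arms was -1.78, adjusted p = 0.03. The call was lost when any single library of CZA libraries 1 to 7, 9 and 10 or of CZA+DAV132 libraries 11, 13, 14 and 16 was left out (adjusted p = 0.0598 to 0.0998). On the deposited scale the smallest adjusted p over all genes was 0.172. The next by p were Trat1 (-1.56, adjusted p = 0.25), Ccne1 (1.42, adjusted p = 0.25), Plk2 (-1.93, adjusted p = 0.25) and Mpc2 (-0.85, adjusted p = 0.25), none of which passed. Csf2 differed by -0.65 in the CZA arm and Cxcl9 by -0.22, with differences between arms of -1.57, adjusted p = 0.305, and 1.88, adjusted p = 0.25. The test separated the arms for no other gene. The fit had 1684 genes at an unadjusted p under 0.05 for the difference between arms.

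The 9 libraries labelled as bulk tumour of the CZA+DAV132 arm (4 isotype, 5 anti-PD-1), came from a separate experiment with the same transplants. Their summed T cell marker TPM was 4582 to 13661, close to the 6022 to 16091 TPM of the sorted cells. Their fibroblast marker sum was 1439 to 2442 TPM, against 892.8 to 1363.8 TPM in the sorted cells. Whether the libraries are of whole tumour, as labelled, was not tested. Repeat entries took 0.34% to 0.64% of their TPM, apart from 51.2% in anti-PD-1 library 26. Of 12182 genes, 4 were higher (0.0328%) and 8 lower (0.0657%), 0.0985% in all, with 1796 at an unadjusted p under 0.05. Single libraries moved that total of 12, from 3 without isotype library 24 or 27 to 187 without anti-PD-1 library 29. It was 4 without library 21, 6 without library 26 or 30 and 18 without library 23. Set side by side, many signs matched and some did not. Of the 12 largest falls of the sorted cells 11 were tested there, and all 11 were below 0, for instance Csf2 at -0.93, Dusp1 at -2.44, Ccr7 at -1.70 and Trat1 at -1.36. Of 776 genes called lower in the sorted cells, 646 were below 0 (83.2%), and of 942 called higher 129 were (13.7%), beside 51.3% of all genes tested in both. Respiratory genes had 61 of 69 below 0 (median -0.41), proteasome genes 27 of 31 (median -0.49) and immediate early genes 27 of 32 (median -0.95). Interferon-gamma genes had 7 of 24 below 0 (median 0.45). Some other lists kept their sign with a smaller median, and that of the T cell receptor complex changed sign. Medians were 0.14 there against 0.98 in the sorted cells for mitochondrially encoded genes, 0.06 against 0.44 for the long regulators, -0.18 against -0.67 for NK genes and -0.17 against 0.13 for genes of the T cell receptor complex. Without library 26, the medians of the respiratory, proteasome, immediate early and interferon-gamma lists were -0.46, -0.58, -0.93 and 0.41. Those of the mitochondrially encoded, long regulator, NK and T cell receptor lists were 0.28, 0.04, -0.21 and -0.29. Genes with an AG or CT run had a median of 0.40, and 0.22 without library 26. No member of any of these lists passed the test there. No test between the sets was made, since the tables may have been normalised separately.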

How the data were processed

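RNA of sorted CD8+ T cells was extracted with the Monarch kit, and 300 ng was ribodepleted and made into directional libraries, per the labels' protocols. The deposited values are TPM per gene symbol, made by the authors with kallisto 0.45 and build GRCm38 per the submitters' processing notes. Which annotation was used, and how transcript estimates became gene values, is not stated in the labels or headers. TPM keeps no depth, so no counting error can be given. Every value column of the table was assigned to a sample through its label (0 unused).

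For each library, 20 repeat entries were left out, TPM was rescaled to 1000000, and genes of at least 1 TPM in at least 5 of the 10 libraries were kept. limma 3.58.1 (R 4.3.3) was run on log2(TPM + 1) with a mean-variance trend, two-sided, with Benjamini-Hochberg adjustment over all genes tested. The bulk-labelled fit required 4 of 9 libraries. On data simulated for this comparison (11852 genes), 55% of changes of 1 and 91% of changes of 2 on the log2 scale were recovered. Of 153 calls there, 7 were unchanged genes. The simulation changed 100 genes by each amount, while 1848 genes were called in the real comparison. Real libraries also showed shifts shared by many genes, such as those with repeat runs. Whether the simulated rate of unchanged genes holds for the real calls was not tested. Of 28023 symbols, 27787 matched the GRCm38 annotation that gave transcript lengths and repeat runs; promoters came from the RefSeq table.

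Genes were named by rule: the 12 largest falls and rises called in the rescaled fit, without libraries 16 and 19 and with median-ratio scaling, at a mean of at least 5 TPM; the 12 largest rises whatever the alternatives; the 12 largest rises without a 31-base run; 3 members of smallest p in each of 36 lists; the 5 of smallest p for the difference between arms; and a set of T cell genes. Predicted genes, pseudogenes, histone genes, antigen receptor variable segments, mitochondrial genes, ribosomal pseudogenes and small RNAs stayed out of the ranked parts. Some genes that these rules name are not reported here. Other genes named with values were chosen after their values were seen. The libraries compared, the lists and the rules were chosen with earlier results of these data known. Alternatives covered scaling, filters, pseudocount, array weights, all 20 CD8 libraries and leaving out libraries. Leaving out genes with repeat runs or imperfect windows, and median-ratio scaling without run genes and without libraries 16 and 19, were chosen after seeing the data.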

Additional observations from a re-analysis of the deposited data

Results flagged for a closer look

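Values were set against the others of their group of 5 libraries by Dixon's gap ratio, with a limit of 0.71. Of 346 groups tested, 36 passed, where chance passes about 1 in 20, and 20 of the 36 were in library 16 and 5 in library 19. In library 19 these were the satellite share (51.1% of deposited TPM), the receptor gene sum (240.5 TPM), Adgrl3 (176 TPM), Ccne1 (66.9 TPM) and Fam81a (775 TPM).

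Library 16 stood apart from the other anti-PD-1 libraries in T cell genes. The summed T cell markers were 6022 TPM and the summed NK markers 1558 TPM. Cd2 was at 149 TPM, Cd3e at 267 TPM, Cd8a at 127 TPM, Cd8b1 at 182 TPM, Pdcd1 at 40.9 TPM, Icos at 19.7 TPM and Tnfrsf9 at 119.8 TPM, each the lowest of its group. Ccl5 (674 TPM), Cst7 (80.8 TPM), Gzmb (616 TPM), Srgn (433 TPM), Ly6c2 (367 TPM), Psmb2 (199.9 TPM), Gbp4 (19.8 TPM) and Gbp7 (19.2 TPM) were also lowest there. Ccl17 (1.60 TPM), the summed neutrophil markers (57.2 TPM) and the summed erythroid markers (1237 TPM) were highest there.

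Among the other libraries, the erythroid sum was 574 TPM in isotype library 15, the B cell sum 406 TPM in anti-PD-1 library 17 and Cd70 7.12 TPM in anti-PD-1 library 20. In isotype library 11, Cd74 (91.1 TPM), Col1a2 (3.41 TPM) and Naaa (2.89 TPM) were low and Prdm1 (5.58 TPM) was high. Cox7a2 (787 TPM, low) and Cxcr4 (38.7 TPM, high) stood apart in library 14, Klra3 (51.6 TPM, high) in library 13 and Adgrl3 (1.07 TPM, low) in library 15. The difference between the arms for Coa7, -1.78 on the log2 scale, passed its test.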

How the results depend on the processing

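The 1848 calls were 2823 with median-ratio scaling, 3811 with array weights and 761 without genes holding an imperfect repeat window, and 1004 to 2928 with 1 library left out, where libraries 12, 13, 15 and 16 moved the count most. Higher calls (1030) were 459 as deposited, 1558 without mitochondrial genes and small RNAs, 1934 without libraries 16 and 19, 2379 with array weights, 451 without imperfect windows and 599 to 1881 with 1 library left out (13, 15 and 16 moved it most). Lower calls (818) were 1675 with median-ratio scaling, 1239 with all 20 CD8 libraries, 1432 with array weights, 520 without run genes, 310 without imperfect windows, 1281 with median-ratio scaling without run genes and libraries 16 and 19, and 405 to 1047 with 1 library left out (12, 13, 15 and 17 moved it most). The median of all genes (0.05) was -0.36 as deposited, 0.13 without mitochondrial genes and small RNAs, 0.17 without libraries 16 and 19 and -0.00074 to 0.14 with 1 library left out (16 moved it most). The 1 call between arms was 0 as deposited (2053 genes at an unadjusted p under 0.05, limma) and 0 to 1 with 1 library left out. The 12 bulk-labelled calls were 19 with median-ratio scaling, 4 with a pseudocount of 0.1 and 3 to 187 with 1 library left out. The 150 called list members were 241 with median-ratio scaling, 306 with array weights, 88 without imperfect windows and 90 to 238 with 1 library left out (13, 15 and 16 moved it most). Nuclear respiratory falls (36) were 56 with median-ratio scaling, 55 with array weights and 26 to 49 with 1 library left out. Interferon-gamma rises (10) were 1 as deposited and 7 to 12 with 1 library left out, and proteasome falls (16) were 10 without imperfect windows and 11 to 17 with 1 library left out. The repeat share difference of 24.7 percentage points was 14.4 to 28.9 with 1 library left out. Of 107 named genes called, 58 were called under all alternatives that tested them, 49 lost the call under at least 1, and none reversed. Apart from the fits with fewer genes or libraries, the cause was not tested. No paired analysis was possible because the groups compared share no replicate numbers. The depth behind each TPM is unknown.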
